A study of Mus musculus with 3 samples.

Results

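Cluster 9 of the deposited clustering holds epithelial cells of the choroid plexus, the tissue in the brain ventricles that secretes cerebrospinal fluid. Its members were the cells numbered 9 in the deposited per-cell table, 245 of 12421 cells. UMIs, the counted RNA molecules, were summed per brain. Metastasis 1 and metastasis 2 gave 97 and 72 of these cells, with 611833 and 471990 UMIs. Naive 1 and naive 2 gave 40 and 36 cells, with 194479 and 202585 UMIs. Cells from brains with metastases came from C57Bl/6 females aged 2 to 3 months, about 2 weeks after E0771 cells had been injected into the carotid artery. E0771 is a mammary carcinoma line of the mouse. Naive brains came from females of the same strain and age without metastases. All brains were perfused, digested with a papain kit and enriched for mononuclear cells on Percoll, an enrichment for immune cells and not for epithelium. Each sample is labelled as 1 brain hemisphere. The brains were stained with 6 antibodies, marked with a hashing antibody each and run as a single pool. The design text speaks of 6 pooled samples, and the 4 hashing antibodies in the files were analysed here, 2 brains for each condition.

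Choroid plexus epithelium forms the barrier between blood and cerebrospinal fluid. It makes transthyretin and other carriers in large amounts, moves sodium, chloride, bicarbonate and water into the ventricle, and takes up folate and other nutrients from blood. Interferons, signalling proteins of antiviral defence, act on it through receptors that activate STAT and IRF transcription factors, which bind interferon-stimulated response elements in target promoters.

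The cells carried the RNA of this epithelium. Ttr, which encodes the thyroxine and retinol carrier transthyretin, made up 35.0% of all UMIs of cluster 9. It made up 12.4% in cluster 7, the other deposited cluster rich in Ttr, and at most 0.732% in each of the remaining 11 clusters. All 16 choroid plexus markers were detected. Together they reached 368163 and 332124 CPM (UMIs of a gene or list per 1000000 summed UMIs) with metastases, against 405149 and 422075 CPM in naive brains. Ttr made up most of these sums. Of the 16 markers, 15 had a log2 fold change, metastasis over naive, below 0 in all cells (median -0.38). By the edgeR test described below, Calml4, Htr2c and Prlr were called lower (18.8%, beside 0.461% of all genes tested). In the low-share cells defined below, 9 were below 0 (median -0.04) and Prlr was called. Markers of other cell types were lower. The largest such sum was that of the 13 carcinoma markers, at 780 and 805 CPM with metastases and 617 and 657 CPM in naive brains, with Krt19 at 0. The 5 clusters of highest sum, called the large clusters here, had 1540 to 1932 CPM, and clusters 10 and 11 had 1506 and 1460 CPM. Among the low-share cells defined below, the sum in cluster 9 was 626 and 550 CPM with metastases and 617 and 642 CPM in naive brains, which overlapped. Krt18, on this list, gave 224 and 218 against 226 and 234 CPM of it, beside 2.90 and 0.792 CPM in the large clusters of metastasis 1 and 2. The 8 ependymal markers reached 337 and 316 CPM with metastases and 416 and 410 CPM in naive brains, and 3 of them (Ccdc153, Tmem212 and Fam183b) were at 0. The 12 microglia markers reached 47.4 and 38.1 CPM against 41.1 and 49.4 CPM, with 5 of them at 0. The 12 markers of monocytes and macrophages reached 230 and 114 CPM against 118 and 188 CPM. Surface CD45, the antigen of blood-derived and microglial cells, had a median of 1 tag per cell in every brain, with means of 10.8 and 3.21 against 1.32 and 1.36. Fibroblast markers stood apart in metastasis 2, at 218 CPM, beside 76.8 CPM in metastasis 1 and 56.6 and 54.3 CPM in naive brains, with Lum, Col1a1 and Col3a1 at 0, and their part in the results was not tested. Median depth was 5371 and 5337.5 UMIs per cell with metastases and 4574.5 and 5575.5 in naive brains, and the median mitochondrial share was 7.33% and 7.08% against 8.07% and 7.74%.

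Cluster 9 was a smaller share of the captured cells with metastases, at 1.81% and 1.17% of each brain's cells, against 6.99% and 11.4% in naive brains. The difference of the means was -7.72 percentage points, with an exact two-sided permutation p of 0.333, the smallest that 2 brains against 2 allow. The brains with metastases also held most cells of the 5 large clusters rich in carcinoma markers (8408 cells). Some cells labelled naive 1 and naive 2 lay in the large clusters too. Among these Lgals1 stood at 6037 and 5640 CPM, beside 5427 and 7604 CPM in those of metastasis 1 and 2. Ttr stood at 1675 and 4209 CPM, beside 638 and 549 CPM. Why cells with a naive hashing label lay there was not tested. Outside the large clusters, cluster 9 was 6.86% and 3.97% of cells with metastases and 8.11% and 12.3% in naive brains. Among the cells of clusters 7 and 9 together it was 38.8% and 32.7% with metastases and 22.9% and 36.7% in naive brains, so the conditions overlapped. These shares describe a Percoll suspension, and fewer epithelial cells and more cells of other types cannot be told apart in them.

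Some droplets, nearly all from the brains with metastases, held more RNA of genes that lead the large clusters. These were the 50 genes most raised in the large clusters over the naive brains' cells outside them. Their choice was therefore not independent of condition. Among them were Krt8, Lgals1, Vim and several ribosomal protein genes. In the large clusters they held a median of 9.68% of a cell's UMIs. In cluster 9 the median was 0.637% and 0.793% with metastases and 0.716% and 0.649% in naive brains. Above 2% lay 13 and 14 droplets of the brains with metastases, against 0 and 1 of the naive brains. They carried 28.4% and 36.8% of the UMIs of metastasis 1 and 2, against 0% and 7.0% in naive 1 and 2. Their median depth was 12536 and 12647 UMIs with metastases, above the 4981 and 4822.5 UMIs of the other cells. Ttr was a median 20.1% and 18.2% of their UMIs, against 39.5% and 38.4% in the other cells of the same brains. Results are therefore given in all cells and in the low-share cells, those in which these genes hold at most 2% of UMIs, a limit chosen after the data were seen.

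**Figure D1:**
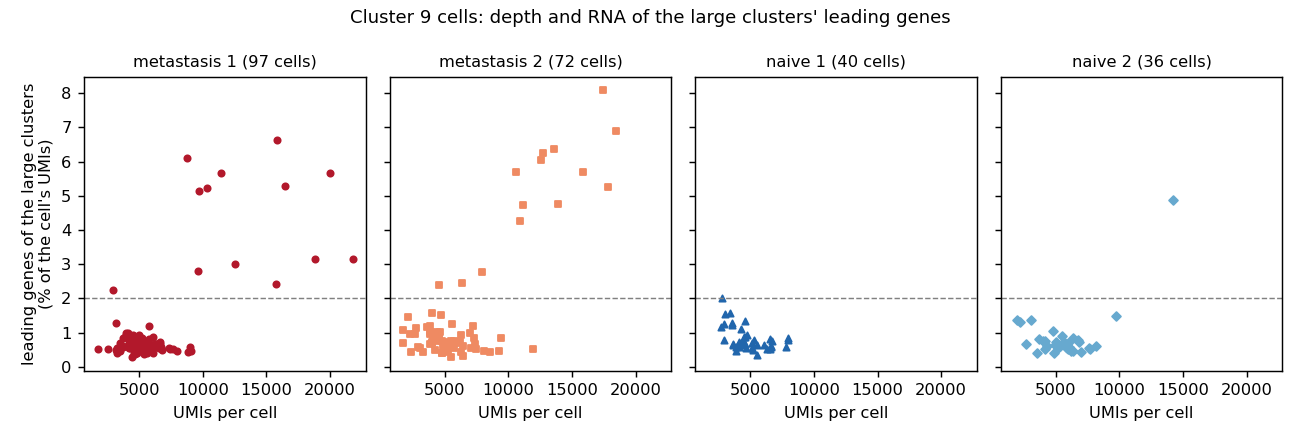
Each point is a cell of cluster 9, with its UMIs on the x axis and the percent of its UMIs from the 50 leading genes of the large clusters on the y axis, in a panel for each brain. The dashed line marks 2%, and 13 and 14 cells with metastases lie above it, against 0 and 1 in the naive brains.

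No gene of the secreted carriers and hormones passed the test for a difference between conditions. Of the 24 listed genes in the table, 20 passed the low-count filter in all cells. None was called by edgeR's quasi-likelihood test at an adjusted p of 0.05 in all cells or in the low-share cells, nor by DESeq2, while 6 and 2 had an unadjusted p under 0.05. Over all 3473 genes tested, 133 (3.83%) were called higher and 16 (0.461%) lower with metastases. In the low-share cells these were 22 (0.854%) and 1 (0.0388%) of 2577 genes. The median log2 fold change of the list, metastasis over naive, was -0.12 in all cells and 0.06 in the low-share cells, beside 0.00 and 0.01 over all genes tested.

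A single cell of cluster 9 gave between 4.55% and 60.2% of its UMIs to Ttr, and the medians of the brains were 37.7% and 35.1% with metastases and 38.0% and 41.1% in naive brains. Ttr stood at 349517 and 315041 CPM in all cells of metastasis 1 and 2, against 381656 and 400686 CPM in naive 1 and 2 (log2 -0.32, SE 0.14, edgeR adjusted p = 0.218). Low-share cells had it at 399156 and 398427 CPM with metastases and at 381656 and 413582 CPM in naive brains. There the naive brains lay on both sides of the metastasis brains (log2 0.05, SE 0.07, adjusted p = 0.981). Without naive 2, the same cells gave a log2 difference of 0.15 for Ttr that edgeR called (adjusted p = 2.60e-13), from a fit with 1 naive brain whose spread was taken from the others. Enpp2, which encodes autotaxin, the enzyme that makes lysophosphatidic acid, had 12192 and 12675 CPM in low-share cells with metastases and 12659 and 11751 CPM in those of naive brains. Its log2 difference was -0.35 in all cells (SE 0.15, adjusted p = 0.219) and 0.07 in the low-share cells (SE 0.10, adjusted p = 0.965). Igfbp2, a binding protein of insulin-like growth factors, had 1462 and 1738 CPM in low-share cells with metastases and 1671 and 1842 CPM in naive ones, and these overlapped. Sostdc1, a secreted BMP and Wnt antagonist, likewise overlapped, at 1409 and 1449 CPM with metastases and 1573 and 1338 CPM in naive cells.

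The other abundant secreted products did not pass either. In the low-share cells Apoe, a lipid carrier, averaged 3723 ± 29.5 CPM with metastases and 3589 ± 239 CPM in naive brains (SD, n = 2 each). Cst3, the protease inhibitor cystatin C, averaged 3271 ± 456 and 2759 ± 54.5 CPM, and its log2 difference of 0.29 (SE 0.12) did not pass (adjusted p = 0.507). Ptgds, prostaglandin D synthase, averaged 2215 ± 8.71 CPM with metastases and 2264 ± 4.59 CPM in naive brains. 1500015O10Rik, listed with the secreted genes, averaged 2660 ± 251 and 2669 ± 8.20 CPM. Igf2, a growth factor made by this tissue, was barely detected, with 0 and 5 UMIs with metastases and 4 and 4 in naive brains. Trf, the iron carrier transferrin, had 154 and 202 UMIs with metastases and 35 and 52 in naive brains (log2 0.53, SE 0.26, adjusted p = 0.288 in all cells). Of the 202 UMIs of metastasis 2, 134 lay in 9 droplets rich in Gpx3.

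Ion and water transport genes did not pass either. Of 26 listed genes 25 were tested, none was called by edgeR, 4 had an unadjusted p under 0.05 in either set of cells, and the median log2 fold change was -0.16 in all cells and 0.15 in the low-share cells. The sign of most members turned with the choice of cells: 20 of 25 were below 0 in all cells and 20 of 25 above 0 in the low-share cells. Slc12a2, the sodium, potassium and chloride cotransporter NKCC1, had 594 and 698 CPM in low-share cells with metastases and 571 and 398 CPM in naive ones (log2 0.46, SE 0.17, adjusted p = 0.406). Atp1b1, the beta 1 subunit of the sodium pump, had 818 and 869 CPM with metastases and 756 and 770 CPM in naive cells. Fxyd1, a regulator of the pump, had 1338 and 1459 CPM with metastases and 1203 and 1115 CPM in naive cells (log2 0.32, SE 0.14, adjusted p = 0.575). For Slc12a2, Atp1b1 and Fxyd1, and for Slc4a10 below, both brains with metastases lay above both naive ones in the low-share cells, as they did for 14.4% of all genes tested there, and none was called.

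Other genes of the secretory route differed in direction. Aqp1, the water channel of the apical membrane, had 95.9 and 101 CPM in low-share cells with metastases and 108 and 79.6 CPM in naive ones. The bicarbonate transporter Slc4a5 had 171 and 312 CPM against 231 and 127 CPM, and Slc4a10 had 541 and 587 CPM against 535 and 536 CPM. The carbonic anhydrase Car2 had 322 and 379 CPM with metastases and 334 and 313 CPM in naive cells. Kcnj13, an inward rectifier potassium channel, came nearest to a call in all cells (log2 -0.62, SE 0.19, edgeR adjusted p = 0.0573), and DESeq2 called it there. Its low-share levels were 713 and 597 CPM with metastases and 869 and 817 CPM in naive ones, with a log2 difference of -0.31 (SE 0.16, adjusted p = 0.706). Trpm3, a cation channel, went the same way, with 274 and 299 CPM against 401 and 340 CPM (log2 -0.33, SE 0.20, adjusted p = 0.853 in the low-share cells).

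**Figure D2:**
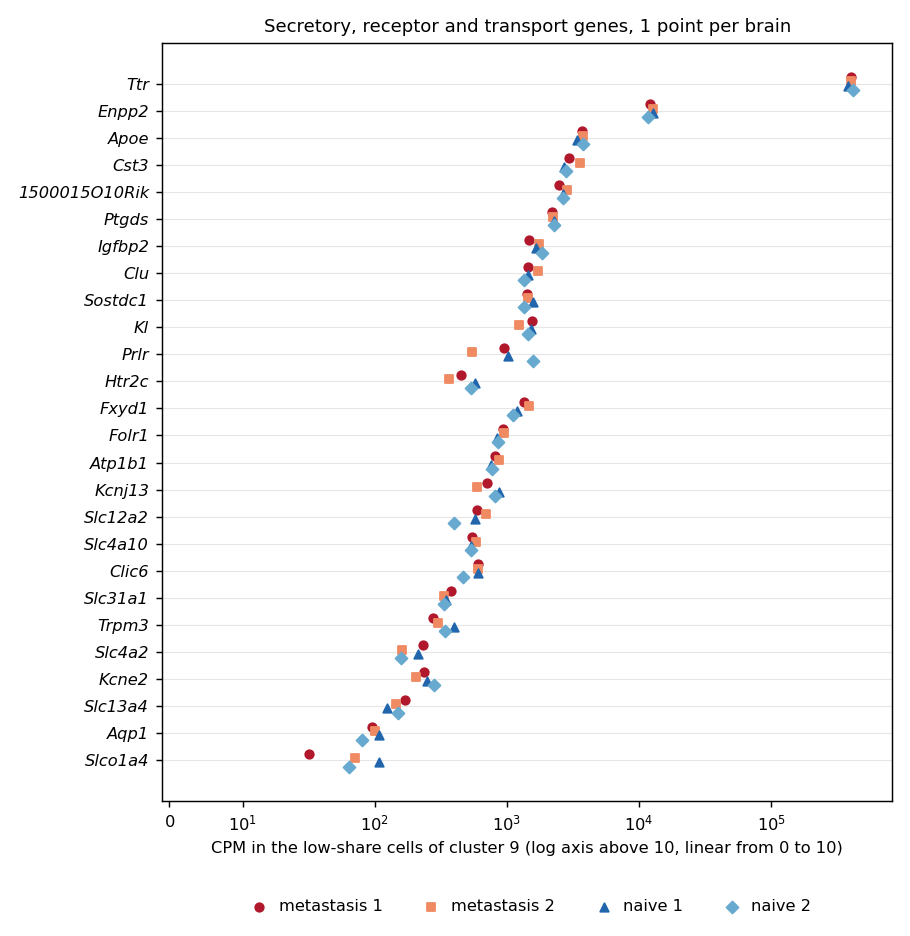
Each point is the level of a gene in the low-share cells of a brain, in CPM on an axis that is logarithmic above 10 and linear from 0 to 10. Red and orange points are brains with metastases and blue points naive brains, and for most genes the 4 points lie close together. Prlr has its lowest point in metastasis 2 (543 CPM) and its highest in naive 2 (1571 CPM).

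Among nutrient, vitamin and solute transporters, 1 of 16 tested genes was called in all cells and none of 15 in the low-share cells, where 2 had an unadjusted p under 0.05 and DESeq2 called none. Folr1, the folate receptor that loads folate into cerebrospinal fluid, had 930 and 956 CPM in low-share cells with metastases and 848 and 860 CPM in naive ones (log2 0.19, SE 0.15, adjusted p = 0.920). Slc31a1, a copper transporter, had 375 and 332 CPM with metastases and 345 and 334 CPM in naive cells, and these overlapped. The thyroid hormone transporter Slco1c1 overlapped as well, at 171 and 151 CPM with metastases and 139 and 202 CPM in naive cells. The called gene was Slco1a4, an organic anion transporter that is also on the list of endothelial markers. It had 17 and 22 UMIs with metastases and 21 and 12 in naive brains (log2 -1.28, SE 0.38, adjusted p = 0.0485), and its low-share values overlapped, at 32.0 and 70.5 CPM against 108 and 63.7 CPM. The other 12 listed genes in the table were below the filter. Metal and retinoid genes gave no call by edgeR among 12 tested in all cells (4 with an unadjusted p under 0.05, and Mt3 called by DESeq2) or among 10 in the low-share cells (1 with an unadjusted p under 0.05). The iron store Fth1 had 2188 and 2560 CPM in low-share cells with metastases and 2664 and 2118 CPM in naive ones.

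The tests could miss changes of 2-fold. In simulated counts made from the same sums, edgeR recovered 72 of 100 genes changed 2-fold and 100 of 100 changed 4-fold in all cells. In the low-share cells these were 66 and 100 of 100. The simulation gave every gene the same spread and changed only well-counted genes. Changes smaller than 2-fold were not simulated. A missing call is thus no sign that a level was the same. In the low-share fit edgeR estimated 1 spread for all genes and not a gene's own, so a small p there can stand beside brains of a condition that differ, as for Prlr and Gpx3.

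Of the 16 genes called lower in all cells, 2 were receptors, Prlr and Htr2c. Prlr, the prolactin receptor, fell in both sets of cells. It had 737 and 400 CPM in all cells with metastases and 1018 and 1520 CPM in naive brains (log2 -1.24, SE 0.23, edgeR adjusted p = 5.17e-04). Its low-share levels were 950 and 543 CPM against 1018 and 1571 CPM (log2 -0.74, SE 0.15, adjusted p = 7.16e-05). The conditions did not overlap, but metastasis 1 and naive 1 were close. The call in low-share cells was lost without metastasis 2 (log2 -0.40, adjusted p = 0.575), without naive 2 (log2 -0.34, adjusted p = 0.852) and by DESeq2 (adjusted p = 1.000). Htr2c, the serotonin 2C receptor, fell in all cells, with 363 and 265 CPM against 576 and 518 CPM (log2 -0.88, SE 0.22, adjusted p = 0.0122). Low-share cells had it at 452 and 366 CPM with metastases and 576 and 531 CPM in naive brains and did not pass (log2 -0.38, SE 0.18, adjusted p = 0.649). In all cells Prlr lost its call without metastasis 1 (adjusted p = 0.100), without naive 2 (adjusted p = 0.0745) and without the Scrublet calls (adjusted p = 0.119), and Htr2c lost its call without each of the 4 brains. The other 8 of 10 receptors tested in all cells were not called. Kl, which encodes klotho, had 1542 and 1231 CPM in low-share cells with metastases and 1517 and 1454 CPM in naive ones. The subunits of the interferon receptors, Ifnar1, Ifnar2, Ifngr1 and Ifngr2, were too low to test, at 3 and 0, 14 and 10, 9 and 6, and 2 and 2 UMIs with metastases, against 1 and 2, 3 and 4, 3 and 2, and 0 and 0 UMIs in naive brains.

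Interferon-induced genes were higher with metastases. In all cells 3.83% of all genes tested were called higher. Of the 27 listed type I interferon genes, 14 were below the filter there. All 27 summed to 4880 and 6744 CPM with metastases, against 2288 and 1718 CPM in naive brains. Ifit1, Ifit3, Irf7, Isg15, Rsad2, Rtp4 and Trim30a had at most 4 UMIs in a naive brain. They passed the filter through the brains with metastases and could hardly have been called lower. Of the 13 genes tested, 11 rose and none fell, with a median log2 fold change of 2.98, which follows in part from the filter. These calls depended on the brains and droplets included: of the 11, 3 stayed called without metastasis 1 (Isg15, Ifi27l2a and Ifitm3), 6 without metastasis 2, 10 without naive 1 and 10 without naive 2. Without the Scrublet calls 5 stayed (Ifit1, Isg15, Ifi27l2a, Ifitm3 and Bst2). The weight that edgeR gave to a spread shared by all genes also differed between these fits, as given below. Without metastasis 1, Ifit1 had an adjusted p of 0.0532, Ifit3 of 0.0766 and Trim30a of 0.138, and only 4 genes of any kind were called. In the low-share cells 16 listed genes were below the filter, with the same limit. All 27 summed to 5360 and 6250 CPM there with metastases, against 2288 and 1635 CPM in naive brains. Of the 11 tested in these cells, 10 rose, beside 0.854% of all genes tested there, with a median of 3.19. DESeq2 called 3 of the list in all cells and 7 in the low-share cells. In the low-share cells the conditions did not overlap, metastases higher, for these 10 genes, and for 372 (14.4%) of all genes tested there, while 544 (21.1%) did not overlap in the other direction. The exception among the 11 was Ifi27, an abundant member of the list, at 1089 and 973 CPM with metastases and 1208 and 855 CPM in naive cells.

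Ifit1, an antiviral protein that binds foreign RNA, had 126 and 118 UMIs with metastases and 4 and 2 in naive brains. Within the low-share cells its level was 258 and 272 CPM against 20.6 and 10.6 CPM (log2 4.08, SE 0.38, adjusted p = 8.47e-24). Isg15, a ubiquitin-like protein, had 180 and 188 CPM against 15.4 and 15.9 CPM (log2 3.56, SE 0.42, adjusted p = 1.43e-14). In both genes the brains of a condition lay close together and far from the other condition. Ifi27l2a, another interferon-induced gene, had 706 and 1131 CPM in low-share cells with metastases and 87.4 and 101 CPM in naive ones (log2 3.32, SE 0.22, adjusted p = 3.72e-47). Irf7, the transcription factor that amplifies the response, had 93.6 and 205 CPM against 20.6 and 10.6 CPM (log2 3.19, SE 0.45, adjusted p = 7.62e-10). Metastasis 2 stood above metastasis 1 in both of these genes.

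Genes with a clear naive level rose as well. Ifitm3, which blocks entry of enveloped viruses, had 1236 and 1386 CPM in low-share cells with metastases and 288 and 180 CPM in naive ones (log2 2.53, SE 0.18, adjusted p = 1.27e-42). Bst2, or tetherin, which holds budding viruses at the cell surface, had 1019 and 993 CPM against 447 and 287 CPM (log2 1.5, SE 0.17, adjusted p = 5.15e-16). Lgals3bp, a secreted galectin-3 binding protein, had 263 and 426 CPM against 123 and 84.9 CPM (log2 1.74, SE 0.25, adjusted p = 7.13e-10). These 7 genes, Ifit1, Isg15, Ifi27l2a, Irf7, Ifitm3, Bst2 and Lgals3bp, were called by the test in each of 6 further fits of the low-share cells: by DESeq2, without each of the 4 brains, and without droplets rich in Gpx3. In all cells 3 of the 7 (Isg15, Ifi27l2a and Ifitm3) were called without each brain in turn. The low-share cells were chosen after the data were seen.

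Members near 0 in naive brains were known from few molecules. Ifit3 had 34 and 63 UMIs with metastases and 0 and 2 in naive brains, a ratio of CPM of 17.8 (95% exact counting interval 4.79 to 149). Trim30a had 32 and 33 UMIs against 0 and 1, a ratio of 23.8 (4.13 to 955). Rsad2, or viperin, had 28 and 16 UMIs with metastases and 0 and 0 in naive brains. Against a limit of 3 UMIs over both naive brains it was at least 5.37-fold higher with metastases (adjusted p = 0.00261 in all cells). Without naive 1 the call of Rsad2 was lost (adjusted p = 0.0662), and without either metastasis brain or the Scrublet calls it was below the filter. Among low-share cells the calls of Ifit3 (adjusted p = 0.0893) and Trim30a (adjusted p = 0.268) were lost without metastasis 2, and also by DESeq2. Ifit3b (18 and 17 UMIs against 0 and 0) and Ifi44 (13 and 28 against 0 and 0) were below the filter. These intervals cover counting error only. Cxcl10, the interferon-induced chemokine in the title of the series, did not share this pattern, with 1 and 0 UMIs in cluster 9 with metastases and 1 and 1 in naive brains.

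**Figure D3:**
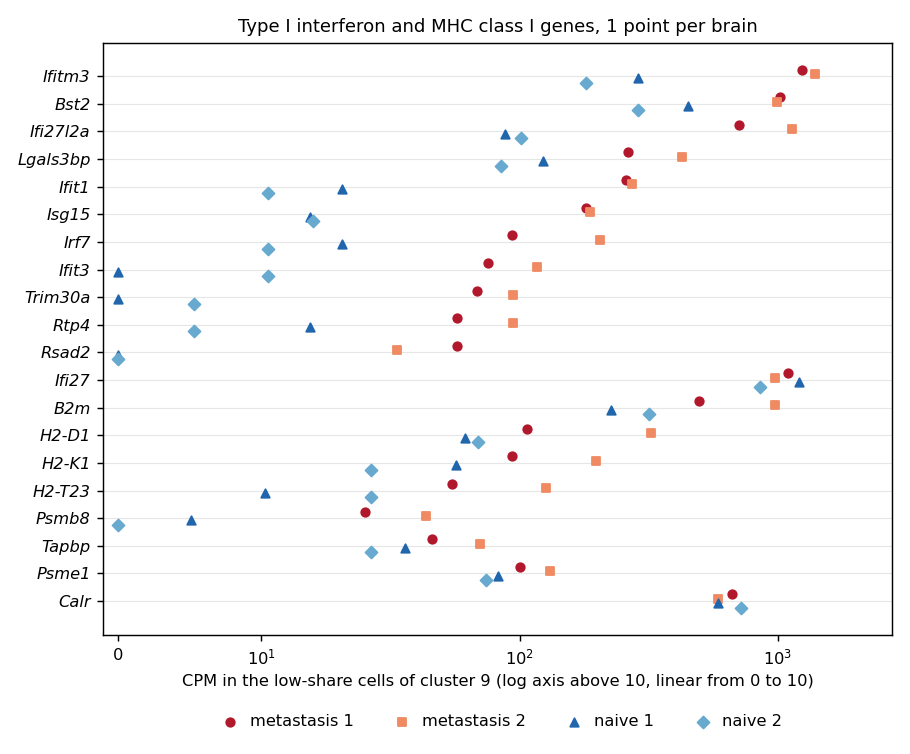
Each point is the level of a gene in the low-share cells of a brain, in CPM on an axis that is logarithmic above 10 and linear from 0 to 10, with brains with metastases in red and orange and naive brains in blue. Ifit1 stands at 258 and 272 CPM with metastases, against 20.6 and 10.6 CPM in naive brains, while Ifi27 overlaps.

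The large clusters expressed some of these genes more than cluster 9 did and others far less. In the large clusters of metastasis 1 and 2, Ifit1 stood at 24.6 and 25.6 CPM, Ifit3 at 2.47 and 3.65 CPM and Ifi27l2a at 15.8 and 82.4 CPM, all below the low-share cells of cluster 9 in the same brains. Isg15 stood at 139 and 175 CPM there, Ifitm3 at 1346 and 1677 CPM, Bst2 at 1069 and 1199 CPM, and B2m at 1429 and 1574 CPM. For Ifitm3, Bst2 and B2m these levels were above those of the low-share cells. The part of free RNA from other cells in these levels was not tested.

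Promoter sequence is shown for 4 of the genes that rose, because their values carry the condition difference. Sequences are from RefSeq (GRCm38.p6), 250 bases before to 50 after a gene's start, 5′ to 3′ on the gene's strand. Capitals mark GAAA, any 2 bases and GAAA again, on either strand, a pattern within interferon-stimulated response elements, and overlapping matches run together. The windows are chr19:34640639-34640938 (plus strand) for Ifit1, chr4:156200769-156201068 (minus strand) for Isg15, chr19:34583279-34583578 (plus strand) for Ifit3 and chr8:71537423-71537722 (minus strand) for Bst2.
Ifit1: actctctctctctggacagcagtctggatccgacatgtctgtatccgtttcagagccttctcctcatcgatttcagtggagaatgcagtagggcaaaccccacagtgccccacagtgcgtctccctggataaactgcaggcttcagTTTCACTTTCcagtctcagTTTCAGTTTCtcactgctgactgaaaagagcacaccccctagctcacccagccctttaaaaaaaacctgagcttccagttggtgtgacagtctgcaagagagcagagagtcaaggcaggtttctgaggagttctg
Isg15: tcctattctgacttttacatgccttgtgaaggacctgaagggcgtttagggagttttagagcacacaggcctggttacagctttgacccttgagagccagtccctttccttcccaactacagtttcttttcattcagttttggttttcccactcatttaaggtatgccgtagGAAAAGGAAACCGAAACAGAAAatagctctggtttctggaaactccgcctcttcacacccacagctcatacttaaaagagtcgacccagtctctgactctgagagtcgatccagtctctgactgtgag
Ifit3: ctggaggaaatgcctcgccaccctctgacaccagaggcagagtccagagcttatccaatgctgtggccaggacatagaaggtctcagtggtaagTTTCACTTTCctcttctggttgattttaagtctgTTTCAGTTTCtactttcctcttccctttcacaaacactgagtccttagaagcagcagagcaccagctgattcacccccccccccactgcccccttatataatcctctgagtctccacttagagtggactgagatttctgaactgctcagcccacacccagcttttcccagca
Bst2: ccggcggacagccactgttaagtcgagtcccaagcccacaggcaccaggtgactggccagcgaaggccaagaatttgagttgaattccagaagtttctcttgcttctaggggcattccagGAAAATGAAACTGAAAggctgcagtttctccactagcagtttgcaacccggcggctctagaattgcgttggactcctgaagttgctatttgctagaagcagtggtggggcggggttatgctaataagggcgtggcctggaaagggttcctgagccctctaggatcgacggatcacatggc
Ifit1 and Ifit3 held 2 matches each, Isg15 held 3 overlapping ones, and Bst2 held 2 overlapping ones. Of the 11 interferon genes that rose, 9 were matched to a window, and 7 of these held the pattern (Bst2, Ifit1, Ifit3, Ifitm3, Isg15, Rsad2 and Trim30a). Irf7 and Lgals3bp held none, and Ifi27l2a and Rtp4 were not matched. The 5 called genes of the MHC class I list, described below, were searched as well. All 5 had a window, and 2 held the pattern (B2m and H2-T23), while H2-D1, H2-K1 and Psmb8 held none. Of all 27025 genes with a window, 3.99% held the pattern, and of 2788 genes tested in cluster 9, 3.77%. A match is a string of letters and no measurement of binding.

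Antigen presentation genes of MHC class I, which interferons also induce, were higher in part. Of the 20 listed genes, 8 were below the filter in all cells and 10 in the low-share cells. Of 12 tested members 5 rose in all cells, and of 10 tested 4 rose in the low-share cells, with medians of 0.85 and 0.73. H2-T23, tested in both sets of cells, and Psmb8, tested in all cells only, had at most 5 UMIs in a naive brain. Both passed the filter through the brains with metastases and could hardly have been called lower. The share of members that rose and the medians therefore follow in part from the filter. Over all genes tested, 3.83% were called higher in all cells and 0.854% in the low-share cells. B2m, the light chain of the class I molecule, had 496 and 970 CPM in low-share cells with metastases and 226 and 318 CPM in naive ones (log2 1.45, SE 0.19, adjusted p = 3.99e-12). The heavy chain H2-D1 had 107 and 322 CPM against 61.7 and 69.0 CPM (log2 1.67, SE 0.29), and H2-K1 had 93.6 and 198 CPM against 56.6 and 26.5 CPM (log2 1.77, SE 0.36). In each of these genes metastasis 2 was the higher of its condition. In all cells of metastasis 2, 9 droplets rich in Gpx3 held 152 of 307 UMIs of H2-D1 and 87 of 149 of H2-K1. Low-share cells without such droplets kept the edgeR calls of B2m (log2 1.23, adjusted p = 4.16e-09), H2-D1 (log2 1.26, adjusted p = 0.0231) and H2-K1 (log2 1.41, adjusted p = 0.0334). H2-T23 was not called there (log2 1.83, adjusted p = 0.0687). Without metastasis 2, H2-D1 (log2 0.76, adjusted p = 0.728) and H2-K1 (log2 1.21, adjusted p = 0.429) lost their calls in the low-share cells, and B2m did not (log2 0.92, adjusted p = 0.00524). H2-K1 also lost its call without naive 2 (adjusted p = 0.128), and DESeq2 called none of the list. H2-T23, a nonclassical class I chain, was called in both sets of cells, and in 2 of the 6 further fits of the low-share cells. Psmb8, a subunit of the immunoproteasome, had 32 and 39 UMIs against 1 and 0 in all cells, a ratio of 26.0 (4.52 to 1042). Of the 32 and 39 UMIs, 21 and 26 lay in droplets above 2% of leading genes. Psmb8 stood at 183 and 245 CPM in the large clusters of these brains. Its low-share levels were 25.1 and 43.6 CPM with metastases and 5.14 and 0 CPM in naive brains. The edgeR call of Psmb8 in all cells was lost without metastasis 1, without metastasis 2 or without the Scrublet calls (adjusted p = 0.0778). Of the 5 genes called in all cells, 0 stayed called without metastasis 1 and 0 without the Scrublet calls, B2m among the lost (adjusted p = 0.0766 and 0.0985). The chaperones Calr, Canx and Pdia3 of the same list had log2 differences of -0.02, 0.14 and 0.18 in the low-share cells. The 16 genes of the interferon gamma list were all below the filter, summing to 139 and 206 CPM with metastases and 51.4 and 54.3 CPM in naive brains.

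**Figure D4:**
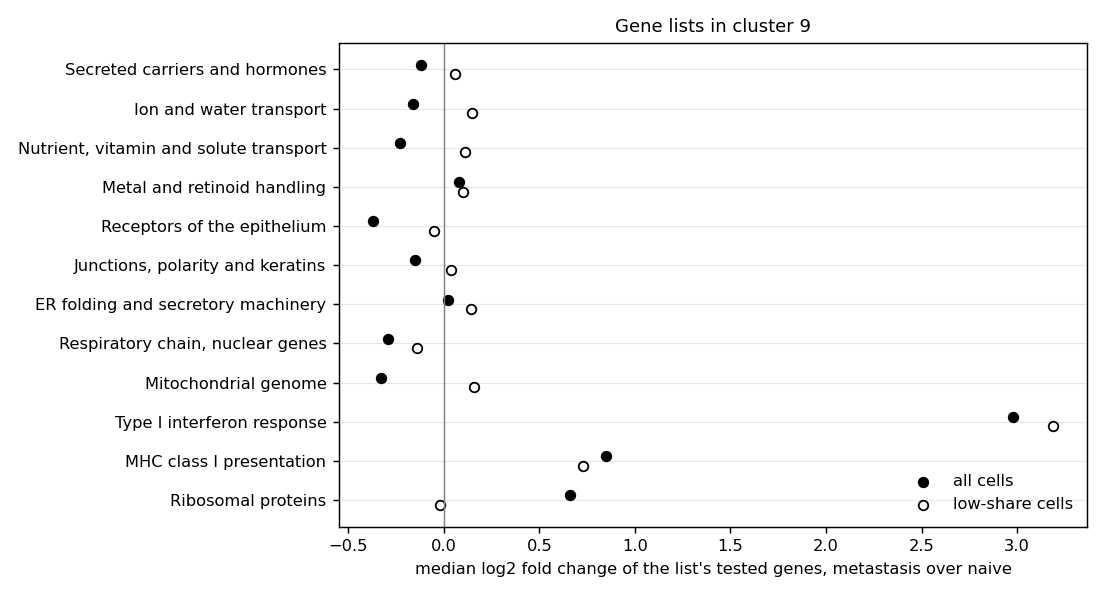
Each row is a gene list, and its points give the median log2 fold change, metastasis over naive, of the list's tested genes in all cells (filled) and in the low-share cells (open). The type I interferon list lies at 2.98 and 3.19 and MHC class I at 0.85 and 0.73, while ribosomal proteins lie at 0.66 in all cells and -0.02 in the low-share cells.

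Beyond interferon genes, many calls were present in all cells and not in the low-share cells. The 80 ribosomal protein genes, grouped after the data were seen, gave 41 calls for higher levels in all cells (51.2%), beside 3.83% of all genes tested. Their median log2 fold change there was 0.66. In the low-share cells they gave 0 calls, beside 0.854% of all genes tested, with a median of -0.02. Of the 149 called genes, 24 were among the 50 leading genes of the large clusters, and none of the 23 called in the low-share cells was. The low-share cells are defined by a limit on these same 50 genes, 5 of them ribosomal (Rplp0, Rps2, Rps18, Rpl13 and Rpl8), so the loss of calls among them follows in part from that definition and is no independent result. In the low-share cells 176 genes had an unadjusted p under 0.05, and 22 of the 23 calls were shared with all cells. Cdk6, a cell cycle kinase, was 25 and 20 UMIs with metastases and 0 and 0 in naive brains in all cells (at least 5.50-fold higher, adjusted p = 0.00191), and was below the filter in the low-share cells. The call of Cdk6 was lost without naive 1 (adjusted p = 0.0578) and without the Scrublet calls (adjusted p = 0.0783), and the gene was below the filter without either metastasis brain. Hist1h2ap, Ccl2, Igfbp6, Nip7 and Plec, called in all cells, were also below the filter there. Ccl2, a chemokine for monocytes, had 30 and 19 UMIs against 1 and 0, of which the low-share cells held 4 in all with metastases, and it stood at 154 and 141 CPM in the large clusters of these brains.

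The calls for lower levels in all cells were few. D730003K21Rik (4 and 1 UMIs against 6 and 7) and Srp54a, a subunit of the signal recognition particle (8 and 7 against 8 and 11), rested on few molecules. Nbeal1, Pid1, Mapk4, Nav3, Sowahc and C1galt1c1 fell by log2 values of 1.01 to 1.53 in all cells and did not pass in the low-share cells, where their log2 values stayed below 0, at -1.21 for Nbeal1, -1.04 for Pid1, -0.89 for Mapk4, -0.65 for Nav3, -0.64 for Sowahc and -0.49 for C1galt1c1. Cntn1, a cell adhesion molecule, had 286 and 193 CPM against 411 and 400 CPM in all cells (log2 -0.84, SE 0.23, adjusted p = 0.0274). Its low-share levels were 354 and 265 CPM against 411 and 419 CPM and did not pass (adjusted p = 0.747). Nuclear genes of the respiratory chain had small differences in a shared direction. Of 31, 29 had log2 values below 0 in all cells and 26 in the low-share cells, and Uqcr11 was the call in all cells. Their medians were -0.29 and -0.14, beside 0.00 and 0.01 over all genes tested. Genes of the mitochondrial genome turned with the choice of cells. All 11 tested were below 0 in all cells (median -0.33), and 9 of 11 were above 0 in the low-share cells (median 0.16). The 28 genes of folding and secretion in the endoplasmic reticulum had none called by edgeR or DESeq2, 4 with an unadjusted p under 0.05, and a median of 0.02 in all cells. Calml4, Uqcr11, Prdx1 and mt-Nd4 completed the 16, with log2 values from -0.76 to -0.55.

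Other calls in the low-share cells were outside the gene lists, apart from Gpx3, and are named after their values were seen. Thbs1, the matrix protein thrombospondin 1, had 194 and 235 CPM with metastases and 72.0 and 79.6 CPM in naive cells (log2 1.53, SE 0.28, adjusted p = 8.97e-06), and lost its call without the droplets rich in Gpx3 (adjusted p = 0.0611) and by DESeq2 (adjusted p = 0.20). Il18bp, which binds interleukin 18, had 19 and 37 UMIs in all cells against 1 and 0, a ratio of 20.5 (3.53 to 825). Ly6e, a surface protein induced by interferon, had 162 and 161 CPM against 82.3 and 79.6 CPM (log2 1.04, SE 0.29, adjusted p = 0.0411), and lost its call in each of the 6 further fits. Cpne2, Pcsk2 and Mgat2 rose in the low-share cells and were called in 3, 2 and 1 of the 6 further fits, Il18bp in 2, and Cpne2 was not called in all cells (adjusted p = 0.113). Gpx3 was called in both, but 777 of its UMIs came from metastasis 2, against 20 in metastasis 1, and 35 and 4 in naive brains, so the conditions overlapped.

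Cluster 7 held 498 cells, 153 and 148 with metastases and 135 and 62 in naive brains, with a median of 2633.5 UMIs per cell beside 5229 in cluster 9. Among the low-share cells of cluster 7, 7 of 1812 genes (0.386%) were called higher and none lower, among them Bst2, Ifitm3, Ly6e, Ifi27l2a, Isg15 and Ifit1. The test of the difference, the interaction of cluster and condition with brain as a block, called 0 of 2576 genes (0%) by edgeR, while 123 had an unadjusted p under 0.05. The interaction test has less power than the others. In counts simulated for all cells it recovered 40 of 100 genes with a 2-fold difference of effects and 99 of 100 with a 4-fold one. The low-share interaction, which rests on fewer UMIs, was not simulated, so its power is not known. For Ifit1 the difference of the effects was -0.01 on the log2 scale, for Isg15 0.13 and for Bst2 -0.48. In all cells it called 341 of 5363 genes (6.36%) with the more positive effect in cluster 9 and 29 (0.541%) with the more negative. In cluster 7, 75.9% and 89.6% of UMIs with metastases lay in droplets above 2% of leading genes, against 23% and 17.2% in naive brains, a larger part than in cluster 9. Their part in the 370 calls was not tested beyond the fit of the low-share cells.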

How the data were processed

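RNA, surface antibody tags and hashing tags were measured in 1 pool of 4 brains by CITE-seq with the 10x 3′ chemistry. The deposited matrices hold whole-number UMI counts for 31053 genes in 12421 cells. The authors' per-cell table gives hash.ID, condition, cluster and the mitochondrial percent of counts. The deposited cells had at least 500 UMIs and at most 24.9% mitochondrial counts. Per the submitters' processing notes, Cell Ranger 3.0.2, Seurat 3.0.1 and mm10 were used. Condition and brain come from the deposited table. That the brains are separate animals follows from the labels only as far as each brain had its own hashing antibody.

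UMIs of cluster 9 were summed per brain and tested with edgeR 4.0.16 (R 4.3.3: TMM factors, filterByExpr, quasi-likelihood test, Benjamini-Hochberg adjusted p under 0.05), and the comparison of clusters was an interaction with brain as a block. DESeq2 1.42.0 was an alternative. Fold changes use TMM scaling, whereas CPM are shares of all UMIs. Doublets were not removed in the main fit. Scrublet in scanpy 1.11.5 (8% expected) called 226 cells (1.82%) of all cells, of which 1 and 2 were in cluster 9 of metastasis 1 and 2, and 0 and 0 in naive brains. No cell barcode was shared between brains (0). The tests were tested on simulated data.

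Members and gene lists were chosen with earlier results of these data known. Named were the tested members of the secretory and transport lists, the 12 called genes of largest change in each direction whose brains did not overlap, up to 5 called members of other lists per direction, and 5 per direction for the interaction. The remaining interferon genes and the calls of the low-share cells were named after their values were seen. Some items are not reported here.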

Additional observations from a re-analysis of the deposited data

Results flagged for a closer look

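The condition effect differed between cluster 9 and cluster 7 by the interaction test in all cells for 341 genes with the more positive effect in cluster 9 and 29 with the more negative one (edgeR, adjusted p under 0.05). Values are the effect in cluster 9 minus that in cluster 7 on the log2 scale. The most positive were Lcn2 at 7.28, Apod at 5.51, Trim30a at 4.88, Bgn at 4.78 and Esrrg at 4.07. The most negative were Slc39a6 at -4.22, Clstn3 at -3.45, Snrpa at -3.01, Srpk1 at -2.91 and Pycrl at -2.90. Most rested on few molecules. Lcn2 had 1 and 28 UMIs in cluster 9 with metastases and 0 and 0 in naive brains, and 2 and 61 against 16 and 0 in cluster 7. Trim30a, an interferon-induced gene, had 32 and 33 UMIs against 0 and 1 in cluster 9, and 16 and 15 against 5 and 3 in cluster 7. Snrpa, a splicing factor subunit, had 16 and 15 UMIs against 9 and 10 in cluster 9, and 46 and 79 against 3 and 2 in cluster 7. In the low-share cells the interaction called 0 genes by edgeR, with 123 at an unadjusted p under 0.05.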

How the results depend on the processing

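The 133 higher and 16 lower calls in cluster 9 became 58 and 9 by DESeq2, 7 lower without a low-count filter and 27 lower at a minimum count of 30. Leaving out a brain gave 4 to 85 higher and 0 to 11 lower calls, the fewest without metastasis 1. They were 10 and 0 in cells holding 2 or fewer UMIs from markers of other types, 5 and 0 without Scrublet calls, 84 and 9 at 10% mitochondrial UMIs or less, 13 and 0 at 2500 UMIs per cell, and 974 and 918 with clusters 7 and 9 together. Chosen after seeing the data, the low-share cells gave 22 and 1, by DESeq2 7 and 0, and without droplets rich in Gpx3 15 and 1. Low-share cells gave 23 and 1 without metastasis 1, 11 and 0 without metastasis 2, 19 and 2 without naive 1, and 20 and 1 without naive 2. The weight edgeR gave to a spread shared by all genes, its prior degrees of freedom, also changed between fits. It was 34 in the main fit, 4.25 without metastasis 1 and 8.37 without Scrublet calls. In the low-share fits by edgeR it was infinite. An unadjusted p under 0.05 by edgeR was found for 578 genes in all cells and for 452 without Scrublet calls. The part of this weight in the changed counts was not tested, nor was any other cause.

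The interaction's 341 and 29 calls became 131 and 3 with no replicate block, 227 and 12 without the filter, 52 negative with RLE factors, and 0 and 0 in low-share cells. Leaving out a brain gave 16 to 244 and 1 to 55, the fewest without metastasis 2. No paired analysis was possible because hashing numbers do not pair brains across conditions. The share of cells, -7.72 points, was 5.97 points among clusters 7 and 9.

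Reversed log2 values were Gpx3 at -1.61 without metastasis 2, the lowest over the brains left out (the highest was 5.20, without naive 1), and -1.32 in low-share cells without it. mt-Nd4 was 0.03 with few other markers, and 0.04 and 0.02 in low-share cells without metastasis 2 and without naive 2. Tubb5 was -0.03 in low-share cells, -0.01 without Gpx3 droplets, -0.41 without metastasis 2 and -0.07 without naive 1. Rps18 was -0.05 with few other markers, -0.13 in low-share cells, by DESeq2, without Gpx3 droplets and without naive 2, -0.31 without metastasis 2 and -0.15 without naive 1. In low-share cells Rplp0 was -0.05 and Rps3a1 -0.14 without metastasis 2, Rps3a1 -0.02 without naive 1, and Rpl8 -0.11 without metastasis 1 and -0.04 without naive 2. Thbs1 was -0.20 with clusters 7 and 9 together. Ttr was 0.15 in low-share cells without naive 2 (adjusted p = 2.60e-13 by edgeR).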

Other observations

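A few droplets of cluster 9 carried Gpx3, a secreted glutathione peroxidase, at 5 or more UMIs: 9 in metastasis 2 and 1 in naive 1. This minimum was chosen after the data were seen, and the droplets are described with no test. The 9 droplets of metastasis 2 held 758 of its 777 Gpx3 UMIs, 316 of 327 of Chil1, 27 of 28 of Lcn2 and 134 of 202 of Trf. They also held 303 of 817 UMIs of Ifitm3, 152 of 307 of H2-D1 and 87 of 149 of H2-K1. Ttr stood at 120250 CPM in them and at 348660 CPM in the other 63 cells of that brain. Prlr stood at 28.8 CPM against 465 CPM, Kl at 101 CPM against 1046 CPM and Sostdc1 at 187 CPM against 1279 CPM, while Folr1 stood at 1008 CPM against 802 CPM. Their depth ran from 1717 to 18491 UMIs. In naive 1, all 35 Gpx3 UMIs lay in 1 cell.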
